A study of Bos taurus with 18 samples.

Results

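The 10 genes described here are surface proteins by which mesenchymal stem cells (MSCs) and other marrow stromal cells are commonly recognised: THY1, NT5E, ENG, CD44, ALCAM, MCAM, NGFR, PDGFRA, PDGFRB and LEPR. They were chosen by name, and all 10 had a row among the 16989 genes counted in each library. Poly-adenylated RNA was sequenced from 17 clones (A to Q), each grown from a single bone marrow-derived bovine MSC, and from 1 heterogeneous population. All 18 cultures came from the same juvenile donor and were taken undifferentiated, at passage 1, from monolayer in basal medium with serum. Each culture was sequenced once. The spread given is therefore that between clones of 1 animal, and p-values measure only this spread, whose technical share is not known.

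THY1 (CD90), NT5E (CD73) and ENG (CD105) form the classical positive panel for cultured MSCs. THY1 is a small lipid-anchored glycoprotein, NT5E an enzyme that makes extracellular adenosine from AMP, and ENG a co-receptor of the TGFβ family. CD44 (the hyaluronan receptor), ALCAM (CD166) and MCAM (CD146) are adhesion molecules, and MCAM is known as a marker of cells around blood vessels and of colony-forming marrow stroma. PDGFRA and PDGFRB are receptor tyrosine kinases for platelet-derived growth factors. NGFR (CD271) and LEPR are the neurotrophin and leptin receptors, both used to isolate stromal cells from fresh marrow.

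Levels are given as counts per 1000000 reads on genes (CPM), where library totals ran from 11484812 to 18458157 in clones and were 16092501 in the heterogeneous library. A count of 3 reads, the one-sided 95% upper limit that a count of 0 allows, is worth 0.163 to 0.261 CPM, and such limits cover counting error only. CPM is not divided by gene length, so levels were compared between libraries and never between genes. In bulk RNA, fewer cells expressing a gene and less RNA per cell cannot be told apart. Markers that should be absent from MSCs were low in clones: the 9 haematopoietic exclusion genes, among them PTPRC and CD34, summed to at most 1.64 CPM in any clone. ITGAM, CD79B and BOLA-DRA had no read in any library, the heterogeneous one included, so their rows add nothing to that sum. Of 22 other surface genes of stromal cells, CD81, CD151, CD55 and F3 had 0 reads in every library, so a row at 0 in this table does not by itself show that a gene was silent. Clones C and O were the closest pair of clones, with a chi-square of 4.73 per degree of freedom across genes against a median of 117 over the 136 pairs. They differed by more than the sampling noise of counts and were counted as 2 samples, as labelled, although this does not tell clones from repeat libraries.

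All 3 genes of the classical panel were well read in every library, with 1535 reads or more in each clone. THY1 was lowest in clone F at 225 CPM, had a median of 324 CPM and was highest in clone L at 686 CPM. Clones L, H, P and J formed its upper end, with 621 CPM in H, 573 CPM in P and 551 CPM in J. NT5E ran from 270.0 CPM in clone K through a median of 351 CPM to 790.2 CPM in clone N. The next clone below N was L, at 531 CPM, so that clone N stood above an otherwise closely spaced set. ENG ran from 134 CPM in clone D through a median of 182 CPM to 307 CPM in clone H, with clone L next at 289 CPM. Its range was the narrowest of the 8 well-read genes.

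Of the adhesion molecules, CD44 and ALCAM were present in every clone at a few-fold range, and MCAM varied far more. Gene counts do not resolve the splice forms of CD44, which was lowest in clone M at 155 CPM, had a median of 338 CPM and was highest in clone I at 586 CPM, closely followed by clone L at 573 CPM. ALCAM was lowest in clone M at 65.8 CPM, had a median of 87.2 CPM and was highest in clone N at 246 CPM. Clone N was again apart here, with clone L next at 172 CPM. MCAM, in contrast, was read only 37 to 694 times per clone, from 2.62 CPM in clone C through a median of 6.45 CPM to 50.4 CPM in clone K. Clone K lay 19.2-fold above clone C, and the second clone, N, reached 18.1 CPM. The exact 95% Poisson interval of clone K, 46.7 to 54.3 CPM, did not touch that of clone N, 15.9 to 20.5 CPM.

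The PDGF receptors behaved differently from each other. PDGFRA was lowest in clone M at 85.8 CPM, had a median of 274 CPM and was highest in clone N at 851 CPM, a 9.91-fold range. Clone Q (799 CPM), clone L (699 CPM) and clone P (648 CPM) were also high, while clones E (116 CPM) and F (129 CPM) were close to clone M. PDGFRB covered only a 3.40-fold range, from 179.7 CPM in clone Q through a median of 296 CPM to 611 CPM in clone H. Both clones at the top for PDGFRA were at the bottom for PDGFRB, where clone N had 223 CPM. The ratio of PDGFRA to PDGFRB reads, which can be compared between libraries because transcript lengths cancel, consequently ran from 0.294 in clone M to 4.45 in clone Q, with 3.82 in clone N and 0.623 in the heterogeneous population.

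NGFR and LEPR were barely detected. NGFR had 0 reads in 7 of the 17 clones and 60 reads over all clones together, of which 19 were in clone L and 17 in clone H. These counts correspond to 1.36 CPM in clone L and 1.06 CPM in clone H, and every other clone was at or below 0.42 CPM. LEPR had 0 reads in 13 clones, 2 reads in clones M and N, 1 read in clones K and O, and 2 reads in the heterogeneous library. Both genes were thus at or near the detection limit, and LEPR did not pass the filter on low counts, which left 9 of the 10 genes for testing. NGFR passed that filter through its 2 highest clones. In the slope fits described below, neither gene passed it.

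**Figure D1:**
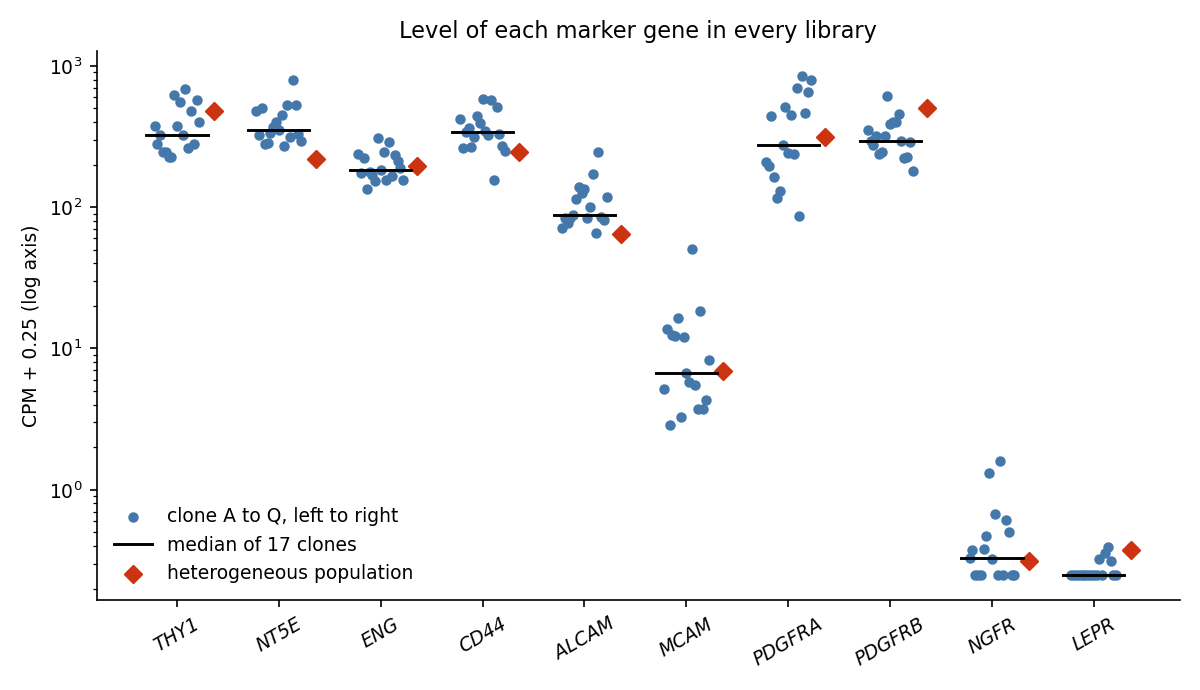
Level of each of the 10 genes in every library, as CPM + 0.25 on a log axis, with 1 point for each of clones A to Q in that order, a bar at the median of the 17 clones and a red diamond for the heterogeneous population. MCAM (2.62 to 50.4 CPM) and PDGFRA (85.8 to 851 CPM) have the widest ranges of the well-read genes, and NGFR and LEPR lie at the floor set by the added 0.25.

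The spread between clones was set beside that of all genes. On the log2(CPM + 0.25) scale the median SD of the 11761 genes passing the filter was 0.35. The SD of MCAM was 1.10, larger than that of 94.8% of these genes, and the SD of PDGFRA was 1.02, larger than that of 93.6%. THY1 (0.53), ALCAM (0.50), CD44 (0.48), PDGFRB (0.44) and NT5E (0.43) lay moderately above the median, between the 61.7% and the 73.5% mark. ENG, with an SD of 0.34, was close to the median gene. These spreads were 7.13 times (MCAM) to 42.4 times (PDGFRA) the SD expected from counting reads alone.

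The same clones recurred at the ends of several orders. Clone L ranked 1 for THY1, 2 for NT5E, ENG, CD44, ALCAM and PDGFRB, and 3 for PDGFRA. Its MCAM, however, ranked only 11 of 17. Clone N ranked 1 for NT5E, ALCAM and PDGFRA and 2 for MCAM, but 16 for PDGFRB. Clone M ranked last for CD44, ALCAM and PDGFRA. Clone K, first for MCAM, was last for NT5E. Libraries differed in other ways too: the 10 genes of a cell cycle list summed to 83.6 CPM in clone M and 1747 CPM in clone L, the lowest and the highest of the clones.

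**Figure D2:**
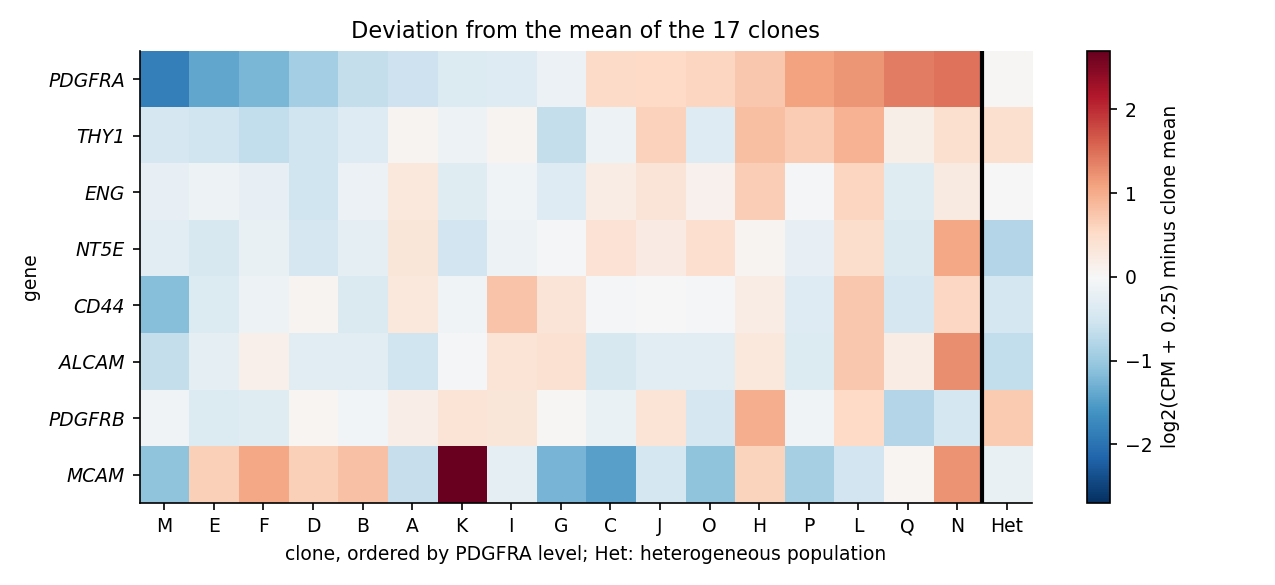
Difference of each library from the mean of the 17 clones, in log2(CPM + 0.25), for the 8 well-read genes (rows), with clones ordered by PDGFRA from M to N and the heterogeneous population (Het) at the right. THY1 follows the order of PDGFRA most closely, PDGFRB is low in clones Q and N at the PDGFRA-high end, and MCAM stands out in clone K.

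The mixed culture was set against the clonal ones of the same donor, to ask whether it differed in surface genes. Its THY1 (478 CPM), ENG (194 CPM), MCAM (6.65 CPM) and PDGFRA (314 CPM) lay within the range of the clones and its PDGFRB (504 CPM) lay above 16 of 17. CD44, at 247 CPM, lay above clone M only. NT5E (220.5 CPM) and ALCAM (64.4 CPM) were below every clone, a position shared by 11% of all genes passing the filter, whereas 5.7% were above every clone. Read as log2 differences, heterogeneous minus clones, NT5E was at −0.77 (SE 0.42), ALCAM at −0.66 (SE 0.46), CD44 at −0.45 (SE 0.42), THY1 at 0.43 (SE 0.45) and PDGFRB at 0.73 (SE 0.39). None of these passed the test. In edgeR's quasi-likelihood test, 0 of the 9 genes tested had an adjusted p below 0.05 against 1.22% of all 11878 genes (1.21% higher and 0.00842% lower), and 0 had an unadjusted p below 0.05. DESeq2 also called 0, and 0 at an unadjusted p below 0.05. With 1 heterogeneous library the spread comes from the clones alone, and by rank a single library among 18 cannot reach a two-sided p below 0.111.

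Genes of macrophages were higher in the heterogeneous library. Of 12 that passed the filter with this library, 9 were called, beside 1.22% of all genes. Of these 9, TYROBP, C1QA and CCR1 were tested only because this library was high. They had at most 4, 3 and 5 reads in any clone. The called genes included CD163, a haemoglobin scavenger receptor (log2 difference 7.44, SE 0.72), and CSF1R, the receptor of macrophage colony-stimulating factor (4.70, SE 0.51). The exclusion genes PTPRC (102 reads against 0 to 10 in clones), CD14 (218 against 0 to 11) and CD86 (31 against 0 to 4) were also called. CD86 had passed the filter only through this library, and the whole exclusion list summed to 21.9 CPM. The 15 macrophage genes summed to 293 CPM, against 14.8 to 109 CPM in clones, with CYBB at 0 in every library. Their part in the levels of the surface genes was not tested. Cell cycle genes stood at 75.0 CPM in the heterogeneous library. Of these, 8 of 10 were below all clones, beside 11% of all genes passing the filter, and 0 of 10 were called by edgeR. Their part was not tested either. ABCC9, a potassium channel subunit of perivascular cells, had 23 reads there and 0 to 4 in clones (log2 difference 3.55, SE 0.78), and it too passed the filter only through this library.

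Each clone was then compared with the other 16, to ask whether a surface gene marks a particular clone. In 153 tests (9 genes in 17 clones), edgeR called 0 at an adjusted p below 0.05, where 0.045% of tests over all genes were called. An unadjusted p below 0.05 was found in 8, among them NGFR in clone L, which was tested only because clones L and H were high. Without NGFR it was found in 7 of 136 tests, or 5.15%, against 4.4% over all genes. The nearest to the threshold was ALCAM in clone N, at a log2 difference of 1.15 (SE 0.29) and an adjusted p of 0.0699 in edgeR. DESeq2 called this 1 test (1.13, adjusted p = 0.0341) and 8 at an unadjusted p below 0.05. NT5E in clone N was at 0.92 (SE 0.29, edgeR adjusted p = 0.133). MCAM in clone K showed the largest difference of these 7, 2.60 (SE 0.67), with an adjusted p of 0.999 in edgeR. CD44 in clone M was at −1.09 (SE 0.38), PDGFRB in clone H at 0.92 (SE 0.33) and in clone Q at −0.91 (SE 0.42), and ENG in clone H at 0.60 (SE 0.27). Clone N was also the clone with most genes called, 86 of 11761 (0.731%, with 0.646% higher and 0.085% lower), followed by clone M with 4 (0.034%). With clone N left out of every fit, the other clones had 5 calls in place of these 4.

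Whether the surface genes vary together was asked over the 17 clones, in 45 pairs. The points share libraries of the same donor and the library total in their denominator. By a two-sided permutation test, 15 pairs had an unadjusted p below 0.05, all with a positive r, and 6 of these involved the sparsely read NGFR. Its highest value, with ENG (r 0.775, permutation p = 0.00022), was 0.525 without clones H and L, which hold most NGFR reads. Each gene of a pair was also fitted against the other over the whole table. A slope is the log2 change of a gene per log2 unit of the other. NGFR and LEPR did not pass the filter in these fits, so no pair with either could be called. Among pairs of the well-read genes, only THY1 and PDGFRA were called in both directions. The slope of PDGFRA on THY1 was 1.30 (SE 0.29, edgeR adjusted p = 0.024), in a fit that called 3.03% of all genes. The slope of THY1 on PDGFRA was 0.32 (SE 0.09, edgeR adjusted p = 0.0171), in a fit that called 19.3%. Pearson's r was 0.753 (permutation p = 0.00059) and Spearman's rho 0.757 (permutation p = 0.00072), and r was 0.727 without clones H and L, the 2 farthest from the median of THY1. With 1 clone left out, r lay between 0.726 and 0.798. Without clone E, F or P, however, the adjusted p of PDGFRA on THY1 became 0.0569, 0.0643 or 0.0532 in edgeR, and with TMM-scaled CPM it was 0.0976, so the pair was no longer called in these fits. With the share of reads outside genes as a further term, described below, the slopes were 1.03 and 0.40 with edgeR adjusted p-values of 0.0902 and 0.0509. With the summed cell cycle genes as a term they were 1.26 and 0.43, with edgeR adjusted p-values of 0.0127 and 0.00619.

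**Figure D3:**
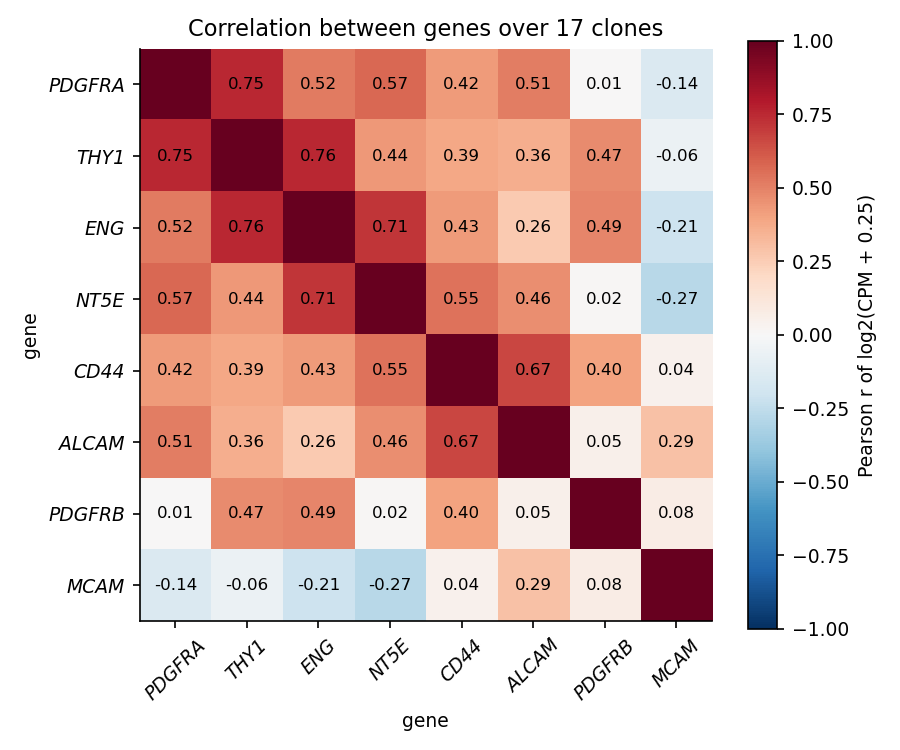
Pearson r of log2(CPM + 0.25) between pairs of the 8 well-read genes over the 17 clones, without the heterogeneous population. The pairs THY1 and ENG, THY1 and PDGFRA, and ENG and NT5E have the highest values (0.755, 0.753 and 0.714), and MCAM has values between −0.274 and 0.294 with every other gene.

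Within the classical panel, both pairs that include ENG had high values, though neither was called. THY1 and ENG had an r of 0.755 (permutation p = 0.00045) and a rho of 0.689, but r fell to 0.586 without clones H and L, and the edgeR adjusted p was 0.0842 in one direction and 0.104 in the other. NT5E and ENG had an r of 0.714 (permutation p = 0.00124) and a rho of 0.760, with edgeR adjusted p-values of 0.103 and 0.143. THY1 and NT5E had an r of 0.437 (permutation p = 0.0784). CD44 and ALCAM, both adhesion molecules, had an r of 0.667 (permutation p = 0.0040) and a rho of 0.547, with edgeR adjusted p-values of 0.117 and 0.136. NT5E with CD44 (r 0.546), NT5E with PDGFRA (0.571), ENG with PDGFRA (0.522), ALCAM with PDGFRA (0.512) and ENG with PDGFRB (0.488) made up the other pairs without NGFR. These last 5 had permutation p-values from 0.0165 to 0.0456 and edgeR adjusted p-values from 0.143 to 0.490. Their r was between 0.0575 and 0.419 without the 2 clones farthest from the median, and with TMM-scaled CPM each permutation p was above the threshold of 0.05. MCAM had no pair with a permutation p below 0.05. Its r with THY1 was −0.0602 (permutation p = 0.822), although both genes lie near each other on 1 chromosome of the ARS-UCD2.0 assembly, with 6 annotated genes between them.

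No relation between both PDGF receptors was detected over the 17 clones. Their r was 0.00752 (permutation p = 0.976), their rho −0.0564 (permutation p = 0.831), and r was 0.104 without clones M and N. With 1 clone left out it lay between −0.124 (without H) and 0.203 (without Q). The r of PDGFRB was also near 0 with NT5E (0.0153, permutation p = 0.954) and ALCAM (0.0546, permutation p = 0.833). With THY1 it was 0.471 (permutation p = 0.0549), and 0.124 without clones H and L.

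**Figure D4:**
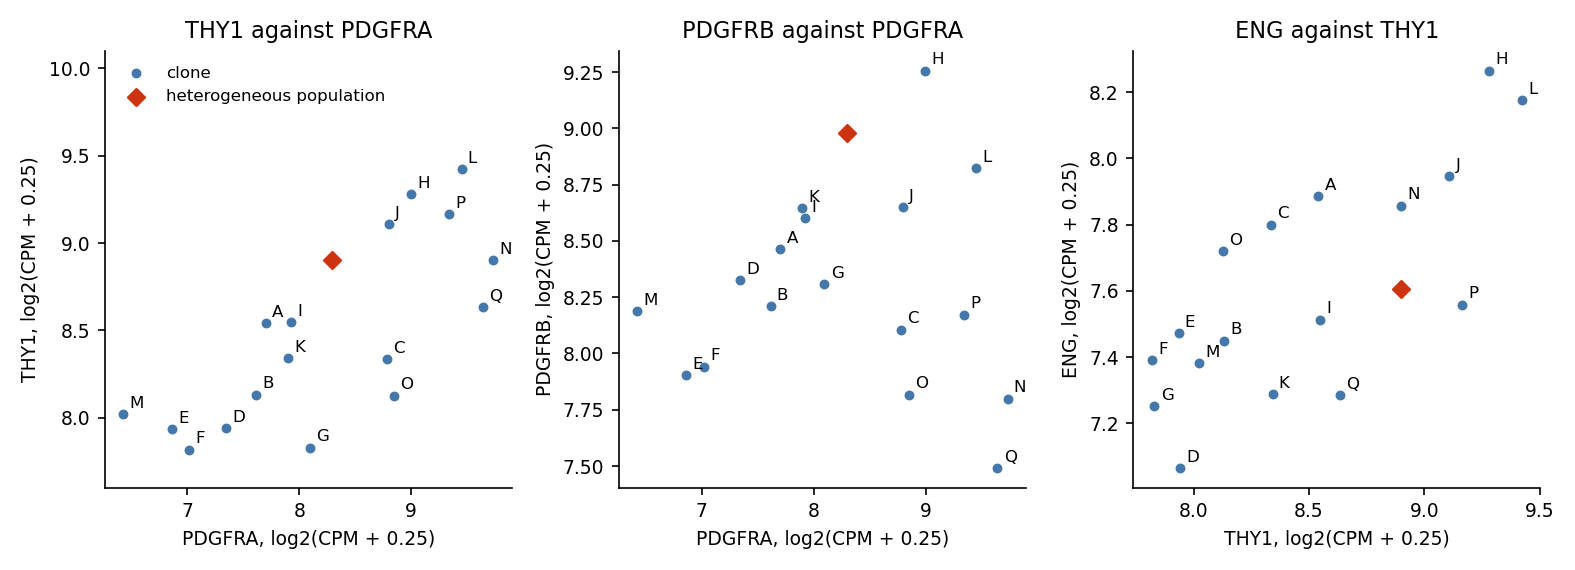
THY1 and PDGFRB against PDGFRA, and ENG against THY1, in log2(CPM + 0.25), with each clone lettered and the heterogeneous population as a red diamond. THY1 rises with PDGFRA (r 0.753), whereas PDGFRB shows no slope on it (r 0.00752), with clones Q and N at the lower right. ENG rises with THY1 (r 0.755), with clones H and L at the upper end.

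Some library properties moved with these genes, which bears on all slopes below. Of 27 relations of 9 genes with library measures, 9 had an unadjusted permutation p below 0.05. The share of reads outside genes ran from 18.8% in clone A to 26.8% in clone N, and ALCAM followed it with an r of 0.932 and a rho of 0.838 (permutation p = 1e-05, the smallest that 100000 resamples can give, and 6e-05). That r was 0.823 without clones L and N. PDGFRA followed the same share with an r of 0.671 (permutation p = 0.00189), a rho of 0.755 and 0.557 without clones L and N. It also followed the summed cell cycle genes with an r of 0.566 (permutation p = 0.0185), as did CD44 with 0.619 (permutation p = 0.00722). CD44 was lower in libraries with more reads on genes (r −0.638, permutation p = 0.00638). NT5E (r 0.590, permutation p = 0.0137), CD44 (0.575, permutation p = 0.0181) and NGFR (0.571, permutation p = 0.0186) followed the share of reads outside genes too. Without clones L and N these r were −0.00607, 0.354 and 0.350. NT5E also followed the cell cycle genes (r 0.530, permutation p = 0.0275). PDGFRB and MCAM followed the share of reads outside genes with an r of only −0.0152 (permutation p = 0.953) and 0.141 (permutation p = 0.586). Each slope fit was repeated with the share of reads outside genes, and with the cell cycle level, as a further term, both chosen after seeing the data.

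PDGFRA was followed by more genes than any other surface gene, except for MCAM with the share of reads outside genes as a term (2315 genes) and for NT5E without clone N (2696 genes). Of 11226 other genes, 2165 (19.3%) had a slope on its level at an adjusted p below 0.05 in edgeR, 10% higher and 9.25% lower. This count stayed between 1515 and 2366 when 1 clone was left out, was 3107 with the cell cycle term, and was 787 with the share of reads outside genes as a term. Of the genes listed here as partners, niche factors and markers, 32 were called, and 8 of these were also called under each of the 22 alternatives: CD9, ENPP1, SOCS3, CXCL12, ERG, SOX10, S100B and GFAP. All 8 rose with PDGFRA. The counts per list below are to be set beside the 10% of all genes that rose and the 9.25% that fell in this fit.

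Of 10 tested genes of the marrow niche, 4 rose and 2 fell, beside 10% and 9.25% of all genes. Their median slope was 0.03 against 0.01 over all genes. CXCL12, the chemokine that retains blood-forming cells in marrow, ran from 31.1 CPM in clone M through a median of 153 CPM to 801.5 CPM in clone N, and was 35.0 CPM in the heterogeneous population. Clones P (440 CPM), L (396 CPM) and Q (335 CPM), also high in PDGFRA, followed clone N. Its slope on PDGFRA was 1.01 (SE 0.14, edgeR adjusted p = 0.000162), and 0.83 (SE 0.18, edgeR adjusted p = 0.0147) with the share of reads outside genes as a term. ANGPT1, a ligand of the vascular receptor TEK, rose by 0.86 (SE 0.24), EBF1, a transcription factor of marrow stroma, by 0.43 (SE 0.09) and GREM1, a BMP antagonist, by 0.31 (SE 0.10). KITLG, the stem cell factor, fell by 0.90 (SE 0.28) on 4 to 111 reads, and the mesenchymal transcription factor PRRX1 fell by 0.30 (SE 0.08). With the share of reads outside genes as a term these last 5 were not called, at slopes of 0.91 for ANGPT1, 0.27 for EBF1, 0.22 for GREM1, −1.17 for KITLG and −0.15 for PRRX1.

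Of 7 tested perivascular and contractile genes, 3 fell as PDGFRA rose, beside 9.25% of all genes, and none rose, with a median slope of −0.26. ACTA2, smooth muscle actin, ran from 468 CPM in clone Q through a median of 2921 CPM to 6048 CPM in clone K, and clones N (578 CPM) and P (720.5 CPM) were next to Q. Its slope was −0.92 (SE 0.19, edgeR adjusted p = 0.00389). The actin-binding proteins CNN1 (−0.58, SE 0.14) and TAGLN (−0.44, SE 0.10) fell too. With the share of reads outside genes as a term the slopes were similar, −0.88 for ACTA2, −0.59 for CNN1 and −0.44 for TAGLN, but the adjusted p-values in edgeR were 0.0541, 0.0684 and 0.0569. In each of the other 21 alternatives, all 3 were called.

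Of 17 other stromal surface genes tested, 4 rose and 3 fell, beside 10% and 9.25% of all genes, with a median slope of −0.05. CD9, a tetraspanin, rose by 0.46 (SE 0.07, edgeR adjusted p = 0.000462), from 185 CPM in clone M to 955 CPM in clone N. ENPP1, a pyrophosphatase that limits mineral formation, rose by 0.62 (SE 0.15) and the adhesion receptor ICAM1 by 0.61 (SE 0.18). VCAM1, an adhesion receptor of marrow stroma, rose by 2.01 (SE 0.44) on no more than 47 reads. It was read mainly in clones N, Q, H and P. CD63 (−0.28, SE 0.06), CD59 (−0.16, SE 0.05) and the co-receptor NRP1 (−0.49, SE 0.14) fell. Of these 7, only CD9 and ENPP1 were called with the share of reads outside genes as a term. The others kept their direction at a similar slope, 1.81 for VCAM1, 0.58 for ICAM1, −0.27 for CD63, −0.17 for CD59 and −0.59 for NRP1.

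Among 28 tested ligands and signalling partners of the 10 surface proteins, 6 rose and 2 fell with PDGFRA, beside 10% and 9.25% of all genes. Their median slope was 0.14. Its own ligand PDGFC rose by 0.26 (SE 0.09, edgeR adjusted p = 0.0444), a call kept in 7 of 22 alternatives. PDGFA, the ligand most closely tied to this receptor, was read 397 to 1140 times per clone and was not called, and PDGFB had 0 reads in every clone. TGFBR2, the type II TGFβ receptor, rose by 0.42 (SE 0.10), and TGFB3, a ligand of it, by 0.38 (SE 0.10). JAK2, the kinase by which LEPR signals, rose by 0.40 (SE 0.07), and SOCS3, a feedback inhibitor of such kinases, by 0.79 (SE 0.17). The adenosine receptor ADORA2B rose by 0.50 (SE 0.12). NTRK2, the receptor for BDNF, fell by 0.52 (SE 0.17). Of the genes called in this list, NTRK2, PDGFC and ADORA2B were not called with the cell cycle level as a term. Their edgeR adjusted p-values were then 0.108, 0.0737 and 0.0665, and the call of NTRK2 was kept in 14 of 22 alternatives. SOCS3, TGFB3 and NTRK2 were also called with the share of reads outside genes as a term. Without a call, slopes in that fit were 0.46 for TGFBR2 (edgeR adjusted p = 0.0541), 0.30 for PDGFC, 0.45 for ADORA2B and 0.22 for JAK2.

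**Figure D5:**
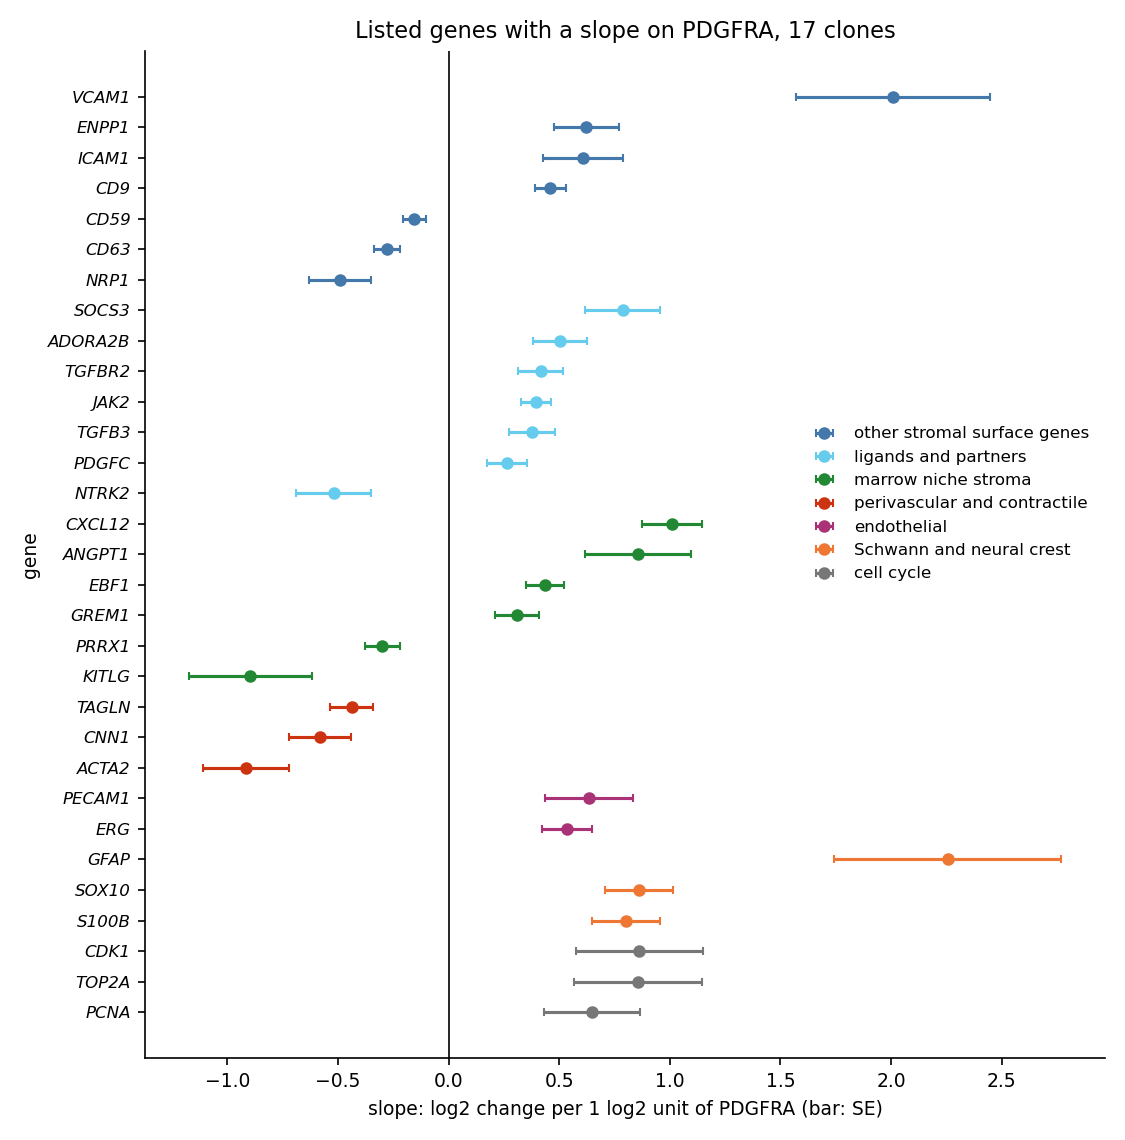
Slopes of called list genes on PDGFRA over the 17 clones (log2 change per log2 unit of PDGFRA, points; bars, SE), coloured by list. CXCL12 (1.01) and the genes of the Schwann and neural crest list lie to the right of 0, and the contractile genes ACTA2 (−0.92), CNN1 (−0.58) and TAGLN (−0.44) to the left.

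Markers of other cell types moved with PDGFRA as well. Of the Schwann cell and neural crest list, 3 of 3 tested genes rose, beside 10% of all genes, with a median slope of 0.86. SOX10, a neural crest transcription factor, ran from 0.797 CPM in clone F to 12.4 CPM in clone L (slope 0.86, SE 0.15, edgeR adjusted p = 0.0012). S100B, a calcium-binding protein of glia and cartilage, ran from 17.5 CPM in clone M to 214 CPM in clone N (slope 0.80, SE 0.15). GFAP, a glial filament protein, rose by 2.26 (SE 0.51), although only clones P, Q and N exceeded 3 CPM, at 45.8, 32.5 and 17.4 CPM. The 8 genes of this list summed to 19.7 CPM in clone M and 244 CPM in clone N, while CDH19 and FOXD3, among others of the list, had 0 reads in every library and ERBB3 at most 3. Of the endothelial list, 2 of 4 tested genes rose, ERG (0.54, SE 0.11) and PECAM1 (0.63, SE 0.20), with CDH5, ESAM and CLDN5 at 0 throughout and a sum of 15.9 to 88.5 CPM. PECAM1 had 3 to 41 reads per clone, and its call was kept in 13 of 22 alternatives. It was at 0.21 (edgeR adjusted p = 0.384) with the cell cycle level as a term. With the share of reads outside genes it was at 0.63 (edgeR adjusted p = 0.148). Of the cell cycle list, 3 of 10 rose, TOP2A, CDK1 and PCNA, beside 10% of all genes. This count was 9 without clone Q and 0 without any of 10 clones (A to F, K, L, M and O). Among macrophage genes, 0 of 6 tested were called. The part of other cell types in the slopes was not tested.

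The other surface genes had smaller sets of followers, and these were less stable. MCAM had 1109 (9.78%), ALCAM 440 (3.88%), THY1 340 (3.03%), NT5E 209 (1.84%) and CD44 137 (1.21%). ENG and PDGFRB had 0 in edgeR, with 1534 and 1080 genes at an unadjusted p below 0.05. The MCAM count was 3 without clone C, 209 without clone O and 2139 without clone M, and was 6 with the cell cycle level as a term. Clones C and O are the closest pair named above, and a fit without both was not run.

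As MCAM rose, 6 of 10 cell cycle genes fell, beside 6.08% of all genes, with a median slope of −0.69 against 0.01 over all genes. They included MKI67 (−0.78, SE 0.23) and PLK1 (−0.79, SE 0.20), which mark and drive dividing cells. This count was 0 without clones C, F, G or O, and 10 without clone M. Outside the cell cycle list, 2 of 17 other stromal surface genes and 3 of 29 ligands and partners were called. Niche genes had 1 of 10, macrophage genes 1 of 6 and the remaining lists 0. Over all genes 9.78% were called, 3.7% higher and 6.08% lower, so these small counts do not set the lists apart. KITLG rose with MCAM by 0.89 (SE 0.19), opposite to its slope on PDGFRA, and so did the integrins ITGA1 (0.35, SE 0.08) and ITGB1 (0.20, SE 0.05). TGFB1 (−0.45, SE 0.10), SOCS3 (−0.63, SE 0.17) and the hyaluronan synthase HAS2 (−0.59, SE 0.18) fell. The protease CTSS, from the macrophage list, rose by 0.57 (SE 0.16). All 13 of these genes were also called with the share of reads outside genes as a term, at edgeR adjusted p-values from 0.00904 to 0.0378. None of these 13 calls was kept under each of the 22 alternatives, however, and with the cell cycle level as a term none was made. For the 6 cell cycle genes that loss is built in, since the term is the sum of their own list. Of the others, ITGA1 was then at 0.44 (edgeR adjusted p = 0.0506), KITLG at 0.73, ITGB1 at 0.19, CTSS at 0.46, HAS2 at −0.72, SOCS3 at −0.46 and TGFB1 at −0.26.

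Partners of the remaining genes were few. Over all lists, 3 genes were called for THY1, 4 for ALCAM, 1 for NT5E and 1 for CD44. Of ligands and partners, these were 1 of 28 tested for THY1, 2 of 29 for ALCAM, and 1 of 29 each for NT5E and CD44. Over all genes, 3.03%, 3.88%, 1.84% and 1.21% were called for THY1, ALCAM, NT5E and CD44. Counts this small do not set the listed genes apart from all genes. With THY1, CD9 rose by 0.87 (SE 0.15), a call kept under each of the 22 alternatives, and CXCL12 by 1.63 (SE 0.39) and ADORA2B by 0.87 (SE 0.21) rose as well, calls kept in 14 and 13 of them. CXCL12 was at 1.17 (edgeR adjusted p = 0.0883) and ADORA2B at 0.71 (edgeR adjusted p = 0.142) with the share of reads outside genes as a term. With CD44, the hyaluronan synthase HAS3 rose by 1.62 (SE 0.31, edgeR adjusted p = 0.0154) on 15 to 185 reads, a call kept in 19 of 22 alternatives. HAS3 was not called with either further term. Its slope was 1.49 (edgeR adjusted p = 0.119) with the cell cycle level and 1.68 (edgeR adjusted p = 0.0712) with the share of reads outside genes. CD44's cytoskeletal linker RDX rose instead with ALCAM, by 0.53 (SE 0.06, edgeR adjusted p = 0.000755), along with CD9 (0.72, SE 0.18), EBF1 (0.77, SE 0.19) and JAK2 (0.63, SE 0.17). With the share of reads outside genes as a term, RDX on ALCAM was at 0.59 (SE 0.19, edgeR adjusted p = 0.122), and CD9, EBF1 and JAK2 were at −0.17, −0.10 and −0.89, none of them called. JAK2 rose with NT5E by 0.80 (SE 0.18, edgeR adjusted p = 0.0417), a call kept in 7 of 22 alternatives.

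The genes whose levels were most like each surface gene over the 17 clones are given as a description, by Pearson r among the 11761 genes passing the filter. PDGFRA was nearest to PSD3 (0.952), SDC4, a syndecan (0.949), and SH3BP1 (0.937). ALCAM was nearest to RDX (0.970), BLOC1S6 (0.968) and the kinase ROCK1 (0.960), in the same libraries in which it followed the share of reads outside genes. THY1 was nearest to KANK2 (0.920), VMAC (0.918) and the spectrin SPTAN1 (0.912). The nearest genes of CD44 were AIM1 (0.928), PLS3 (0.904) and DOCK9 (0.904), and those of NT5E were TPCN1 (0.909), DAPK2 (0.888) and ULBP21 (0.829). MCAM was nearest to FAM63B (0.895), SPTLC1 (0.892) and RALGAPA1 (0.855), ENG to SH3BGRL3 (0.868), EXT2 (0.861) and PGM1 (0.843), and PDGFRB to JUP (0.858), SERPINB6 (0.856) and EIF3F (0.848). No nearest gene is given for NGFR and LEPR, whose reads are too few. None of the 10 surface genes was among the 3 nearest of another.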

How the data were processed

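The authors aligned single-end reads of poly(A) RNA to bosTau7 with STAR 2.3.0e, and HTSeq tallied reads per RefSeq gene. The deposited values are raw counts per gene and library, without normalization, and strand settings are not given in the sources used here. A table of the whole series held the same counts (0 of 305892 cells differed). The 5 tally lines per library, among them 18.8% to 26.8% of reads outside genes and 0.164% to 0.192% ambiguous, stayed out of library sizes.

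CPM (per 1000000 reads on genes) and log2(CPM + 0.25) were computed with Python 3.11.15. Tests used edgeR 4.0.16 in R 4.3.3 (TMM, filterByExpr, glmQLFit, glmQLFTest, Benjamini-Hochberg over all genes, threshold 0.05), tested first on simulated data. Slopes used 1 surface gene's level as the covariate over 17 clones. A pair counted as called when both directions passed. Correlations had two-sided permutation tests of 100000 resamples. Intervals were exact Poisson at 95%. The alternatives were DESeq2 1.42.0, other scalings, no filter, a pseudocount of 1, the heterogeneous library added, and each clone left out in turn. Those with clone N removed, or with library measures as terms, were added after seeing the data.

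The 10 genes and all gene lists (other stromal surface genes, ligands and partners, marrow niche stroma, perivascular and contractile, haematopoietic exclusion, macrophage, endothelial, Schwann and neural crest, cell cycle) were chosen with earlier results of these data known. Listed genes are named where past the threshold or to give a range, and for each surface gene the 3 genes with the largest r are named. Gene lengths and sequences were not used here. A few listed genes are not reported here by name or value.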

Additional observations from a re-analysis of the deposited data

How the results depend on the processing

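No surface gene was called in the heterogeneous library under any alternative, although genes called overall fell from 145 to 88 with DESeq2. ENG turned to −0.040 with library totals in place of TMM. Over all clones, the 90 calls became 405 with DESeq2 and 5 without clone N, whose own 86 calls are then absent, and the calls of surface genes rose from 0 to 1 with DESeq2. With TMM-scaled CPM, genes following a surface gene numbered 150 for THY1, 1 for NT5E, 51 for CD44, 240 for ALCAM, 1726 for MCAM and 29 for PDGFRB, called pairs fell to 0, pairs with p below 0.05 fell from 15 to 7, and r of PDGFRA and PDGFRB turned to −0.23. With the heterogeneous library added, NT5E had 1221 and ALCAM 667. With the share of reads outside genes as a term, the counts were 128 for THY1, 0 for NT5E, 38 for CD44, 37 for ALCAM, 2315 for MCAM, 787 for PDGFRA, 4 for PDGFRB and 0 for pairs. With the cell cycle level they were 1058 for THY1, 4 for NT5E, 1 for ENG, 61 for CD44, 1861 for ALCAM, 6 for MCAM and 49 for PDGFRB.

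With 1 clone left out, THY1 ranged from 104 to 515 (B 212, E 142, F 104, G 515, H 199, P 174), CD44 from 21 to 162 (B 85, G 83, L 28, M 21), ALCAM from 0 to 576 (A 238, L 147, M 258, N 0), and MCAM from 3 to 2139 (B 518, C 3, D 623, E 677, F 278, G 343, M 2139, O 209). NT5E ranged from 6 to 2696 and moved by over 1.5 times whichever clone was left out. ENG ranged from 0 to 162 (G 162, Q 13, A and N 1) and PDGFRB from 0 to 1. Called pairs ranged from 0 to 1, pairs with p below 0.05 from 7 (without L) to 18, and r of PDGFRA and PDGFRB from −0.124 to 0.203. Where not stated otherwise, the cause was not tested. The r of single pairs kept its sign and lost a p below 0.05 in 9 values under other settings and in 24 with a clone left out. Further alternatives left the direction and the call as reported, and counts within 1.5 times.

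No paired analysis was possible because the labels give the clones and the heterogeneous population no replicate numbers that they share. Depth limits NGFR, LEPR and, in part, MCAM: 3 reads are worth up to 0.261 CPM, and no difference in LEPR was detectable at this depth.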
